A study of Homo sapiens with 36 samples.

Results

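The genes described here are 36 genes of the integrated stress and amino acid response: the transcription factors, feedback genes, biosynthetic enzymes, amino acid transporters and cytosolic tRNA synthetases that respond when a cell senses a shortage of amino acids or another cause of slowed translation. They were chosen by name, and all 36 were found among the 29744 genes of the deposited table. Of these, 35 passed a filter on low counts and were tested together with the rest of the 14988 genes that passed it. STC2, which encodes a secreted glycoprotein, did not pass: its highest level in any library was 0.181 TPM, a level of transcripts scaled for gene length and depth, and all 6 TRAP1 libraries were at 0.

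The cells were BxPC-3, an established human pancreatic ductal adenocarcinoma line, seeded into 6-well plates and treated for 2 or 4 h. At each time there was a DMSO group and a group for each of 5 compounds at 3 µM, namely JQ1, MS78, TRAP1, TRAP-1-NegP and TRAP-1-NegB, which makes 12 groups of 3 libraries and 36 libraries in all. TRAP1 is the name of a compound throughout and not of a gene, and the labels do not say what the endings NegB and NegP stand for. JQ1 is a small-molecule inhibitor of the BET bromodomain proteins, which bind acetylated histones. All groups are 1 cell line in the same medium, and nothing in the labels says that the libraries of a group came from separate experiments, so the p-values measure the spread between these libraries, which may be technical. In bulk RNA, fewer cells expressing a gene and less RNA per cell cannot be told apart.

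In the integrated stress response, the kinases GCN2, PERK, PKR and HRI phosphorylate the alpha subunit of the initiation factor eIF2 when amino acids run short, proteins misfold in the endoplasmic reticulum, double-stranded RNA appears or haem is lacking. General translation slows, while ribosomes reach the ATF4 reading frame more often, so that ATF4 protein rises. ATF4, with partners of the C/EBP family, switches on asparagine, serine and one-carbon synthesis, amino acid import, tRNA charging and finally its own shut-off through PPP1R15A, TRIB3 and DDIT3. Much of the response is set by translation and phosphorylation, which RNA sequencing does not measure, so that only the RNA of these genes is described.

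Genes of the response share a short promoter element, and it is shown here because it ties the enzymes and synthetases described below to ATF4 in the textbook account. The letters searched were TGATGNAA, the core of the C/EBP-ATF response element that ATF4 dimers bind, and on the other strand TTNCATCA. The windows were 300 bases long, with 250 before and 50 after a RefSeq start site on GRCh38.p14. For each gene of the list the first window listed was used, so its start site need not be the end of the gene's full span. In ASNS it lies inside the span given below. Of the 36 genes, 30 had a window, and 10 of those held a match (33.3%), against 1270 of 35116 windows of all genes (3.62%). The matches stood in CHAC1, ASNS, SLC3A2, SLC7A1, AARS, CARS, IARS, MARS, NARS and TARS, so that 6 of the 10 tRNA synthetase windows but 0 of 5 transcription factor windows held one. Only matches whose first base lay before the start site are printed, which leaves out SLC3A2, SLC7A1, NARS and TARS. In the following stretches, printed 5′ to 3′ along the gene's own strand, the capitals mark the match.
CHAC1, chr15:40953232-40953281, plus strand: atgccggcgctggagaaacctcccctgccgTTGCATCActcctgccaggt
ASNS, chr7:97872457-97872506, minus strand: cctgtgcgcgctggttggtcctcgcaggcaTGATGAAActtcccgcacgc
AARS, chr16:70289674-70289723, minus strand: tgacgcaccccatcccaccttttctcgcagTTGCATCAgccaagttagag
CARS, chr11:3057418-3057455, minus strand: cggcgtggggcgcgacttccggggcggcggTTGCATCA
IARS, chr9:92293698-92293740, minus strand: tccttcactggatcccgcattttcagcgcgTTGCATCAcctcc
MARS, chr12:57488034-57488071, plus strand: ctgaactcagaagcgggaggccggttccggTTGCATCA

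The first base of the match lay 209 bases before the start site in CHAC1, 187 in AARS, 68 in ASNS, 13 in IARS, 4 in MARS and 2 in CARS. In 5 of these 6 genes the match read TTGCATCA on the gene's strand, and in ASNS, whose element is the classical example, it read TGATGAAA. Of the matches not printed, those in SLC7A1 and NARS had the orientation of ASNS and those in SLC3A2 and TARS the other. A match is a run of letters in a window and not a measured site. The list was itself drawn up from genes known for this response, and genes without a match here, TRIB3, DDIT3 and ATF4 among them, may carry the letters elsewhere.

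The libraries held between 15288688 and 26608325 estimated counts each. Markers of ductal and epithelial cells summed to between 9360 and 12300 TPM in the group means, while 3 acinar markers (1 at 0 in every library) summed to at most 0.132, 3 endocrine markers (2 at 0) to at most 0.193, 5 mesenchymal markers to at most 2.23 and 6 haematopoietic and endothelial markers to at most 7.75. Of the 9 ductal and epithelial markers, 8 were called higher and 0 lower with TRAP1 at 4 h (median log2 change 0.57), 6 and 0 with TRAP-1-NegP, 5 and 2 with JQ1, 0 and 0 with TRAP-1-NegB and 1 and 4 with MS78, and their part in the results below was not tested. Of all tested genes at 4 h, 22.2% were higher and 24.5% lower with TRAP1, and 18.6% and 18.9% with TRAP-1-NegP. The shares were 24.3% and 24.6% with JQ1, 0.827% and 0.200% with TRAP-1-NegB and 6.23% and 9.05% with MS78. The first TRAP1 library at 4 h and the first MS78 library at 2 h stood apart from the other 2 of their groups, with a chi-square over its degrees of freedom of 13.4 to 15.5 and of 28.7 to 46.4, against 4.55 to 11.7 for pairs in the 10 other groups, and the main results that changed without them are given below. Levels are given in CPM, counts scaled to a common library size, after adjustment by TMM, a method that sets the bulk of genes to no change. When libraries were scaled by their totals alone, the median log2 change of all tested genes fell to -0.29 for TRAP1 at 4 h and to between -0.19 and -0.06 for TRAP-1-NegP and JQ1 at either time, so small rises depend on the scaling.

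The 36 genes differed widely in abundance. Over the 6 DMSO libraries, ATF4 had the highest median level with 375.7 TPM (357.7 to 385.0), followed by the transporter chain SLC3A2 with 244.8 TPM, the glutamine carrier SLC1A5 with 195.2 TPM and the threonine synthetase TARS with 168.5 TPM. DDIT3 stood at 26.2 TPM, TRIB3 at 22.0 TPM, ASNS at 16.8 TPM and SLC7A11 at 10.8 TPM. CHAC1 was at 3.37 TPM, NUPR1 at 1.18 TPM, VLDLR at 0.886 TPM and SLC1A4 at 0.354 TPM, levels at which the counts allow only coarse estimates. The 36 genes together took 0.476% to 0.487% of the counts of a DMSO library at 2 h and 0.484% to 0.495% at 4 h. At 4 h they took 0.511% to 0.520% with TRAP1, 0.521% to 0.532% with TRAP-1-NegP, 0.549% to 0.560% with JQ1, 0.546% to 0.554% with TRAP-1-NegB and 0.556% to 0.566% with MS78, so that the TRAP1 libraries were the lowest of the treated ones.

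The response of these genes was mixed. TRAP1, TRAP-1-NegP and JQ1 raised the RNA of ATF4, ATF5, DDIT3, PPP1R15A, ASNS and SLC1A5 at both times, while TRIB3, SLC7A11 and SLC7A1, which are classed as targets of the same factor, fell at both times. The 3 comparisons share their DMSO libraries at each time, so that their likeness is not independent evidence. A gene was called changed at an adjusted p under 0.05 in edgeR's quasi-likelihood test, with Benjamini-Hochberg adjustment over all 14988 genes.

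With TRAP1, 19 of the 35 genes were called higher and 4 lower at 2 h, where 15.8% of all tested genes were higher and 14.3% lower. At 4 h 20 were higher and 5 lower, against 22.2% and 24.5% of all genes. The median log2 change of the 35 was 0.23 at 2 h and 0.20 at 4 h, while that of all tested genes was 0.01 and -0.02. Scaled by library totals, the median of the 35 became 0.11 at 2 h and -0.07 at 4 h. The counts became 11 higher and 5 lower at 2 h, where 9.36% of all genes were higher and 21.8% lower, and 9 higher and 12 lower at 4 h, where 11.3% were higher and 39.7% lower. The 9 called higher at 4 h under each of the 3 scalings tried were ATF4, ATF5, DDIT3, CEBPB, PPP1R15A, ASNS, PSAT1, MTHFD2 and SLC1A5, and the 4 lower were TRIB3, SLC7A11, SLC7A1 and MARS.

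With TRAP-1-NegP, 17 genes were called higher and 4 lower at 2 h, against 16.4% and 13.9% of all genes, and 16 higher and 5 lower at 4 h, against 18.6% and 18.9%. JQ1 gave 18 higher and 4 lower at 2 h, against 14.9% and 13.9% of all genes, and 17 higher and 9 lower at 4 h, against 24.3% and 24.6%. The median log2 change at 4 h was 0.09 with TRAP-1-NegP and 0.16 with JQ1, and by library totals -0.08 and 0.03. By the same scaling the counts at 4 h were 11 higher and 10 lower with TRAP-1-NegP, where 10.2% and 30.2% of all genes were, and 13 higher and 11 lower with JQ1, where 18.5% and 31.5% were, so that the lower counts lay near the share of all genes. At 2 h they were 10 and 6 with TRAP-1-NegP (9.72% and 22.9% of all genes) and 15 and 5 with JQ1 (9.99% and 18.6%).

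The other pair of compounds moved fewer of these genes. TRAP-1-NegB gave 7 higher and 2 lower at 2 h, against 5.09% and 5.87% of all genes, and 4 higher and 0 lower at 4 h, against 0.827% and 0.200%. MS78 gave 12 higher and 4 lower at 2 h, against 8.30% and 7.64% of all genes, and 9 higher and 0 lower at 4 h, against 6.23% and 9.05%. A fit of MS78 and DMSO at 2 h alone called 5 in all, and fewer of all genes as well, as given at the end. At an unadjusted p under 0.05, 0 genes were lower with TRAP-1-NegB at 4 h and 1 with MS78, and the DESeq2 Wald test called 0 lower with either. By library totals, 9 were higher and 4 lower with MS78 at 2 h (6.91% and 8.68% of all genes) and 9 higher and 1 lower with TRAP-1-NegB at 2 h (5.98% and 5.28%). Without the first MS78 library at 2 h, 10 were higher and 3 lower with MS78: PHGDH, SHMT2, SLC38A2, CARS and YARS (0.08, adjusted p 0.44) lost their calls, and EPRS (0.20) and NARS (0.19) were called. Over all genes, leaving out 1 library gave 1727 to 2856 calls for MS78 at 2 h, against 2389 in the main fit.

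**Figure D1:**
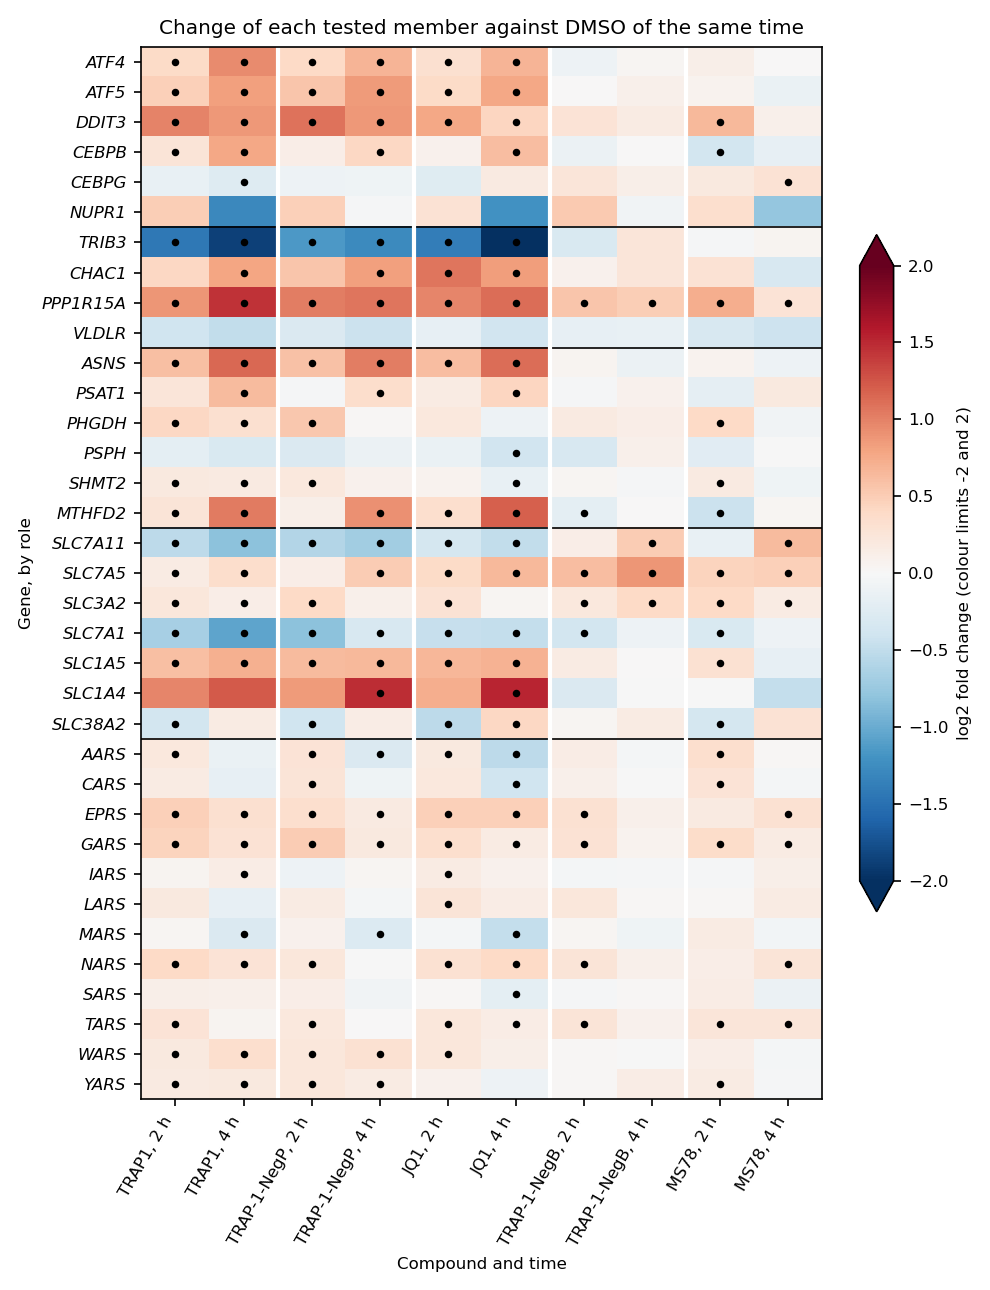
Log2 change against DMSO of the 35 tested genes (rows, grouped by role) in the 10 comparisons of a compound with DMSO (columns), coloured from -2 to 2, with a dot where the gene was called at an adjusted p under 0.05. The TRAP1, TRAP-1-NegP and JQ1 columns hold 23, 21 and 22 dots at 2 h and 25, 21 and 26 at 4 h, and the TRAP-1-NegB column at 4 h holds 4.

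Among the transcription factors, ATF4 (chr22:39520559-39522686), the factor at the centre of the response, had the clearest pattern. Its level was 289, 298 and 302 CPM in the DMSO libraries at 2 h and 301, 339 and 329 CPM at 4 h, and with TRAP1 it was 391, 380 and 386 CPM at 2 h and 619, 636 and 606 CPM at 4 h. TRAP-1-NegP gave 394, 387 and 392 CPM and then 522, 524 and 509 CPM, and JQ1 gave 347, 381 and 383 CPM and then 531, 515 and 511 CPM. TRAP-1-NegB gave 280, 278 and 270 CPM and then 328, 335 and 337 CPM, and MS78 gave 356, 316 and 296 CPM and then 326, 326 and 319 CPM. Every library with TRAP1, TRAP-1-NegP or JQ1 lay above every DMSO library of its time, and at 4 h the TRAP-1-NegB and MS78 libraries lay within the DMSO range.

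The log2 rise of ATF4 with TRAP1 was 0.38 (SE 0.05, adjusted p 4.0e-08) at 2 h and 0.94 (SE 0.05, adjusted p 5.6e-22) at 4 h, a 1.92-fold level. With TRAP-1-NegP it was 0.40 and 0.68 (adjusted p 3.8e-16 at 4 h), and with JQ1 0.32 and 0.68 (adjusted p 1.3e-16 at 4 h). With MS78 the change at 4 h was 0.00 (adjusted p 0.98), and with TRAP-1-NegB it was 0.05 (adjusted p 0.85).

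DDIT3 (chr12:57516588-57520517) encodes CHOP, which promotes cell death under lasting stress. DMSO libraries held 12, 12.3 and 11.2 CPM at 2 h and 15.7, 13.4 and 10.9 CPM at 4 h, and TRAP1 libraries 25.7, 23.4 and 21.4 CPM and then 24.0, 25 and 24.0 CPM. TRAP-1-NegP libraries held 24.5, 28.7 and 22.4 CPM and then 22.4, 22.7 and 27.6 CPM, and JQ1 libraries 20.4, 20.4 and 20.1 CPM and then 19.0, 17.7 and 17.3 CPM. TRAP-1-NegB libraries held 13.8, 14.5 and 14.3 CPM and then 10.8, 15.5 and 18.3 CPM, and MS78 libraries 20.7, 14.6 and 19.9 CPM and then 16.0, 13.1 and 13.7 CPM. Libraries with TRAP1, TRAP-1-NegP or JQ1 all lay above those with DMSO at both times, and MS78 and TRAP-1-NegB libraries did so at 2 h and overlapped DMSO at 4 h.

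At 2 h DDIT3 rose by 0.99 with TRAP1 (SE 0.15, adjusted p 4.1e-07), 1.09 with TRAP-1-NegP (adjusted p 5.5e-08), 0.78 with JQ1 (adjusted p 4.1e-05) and 0.64 with MS78 (adjusted p 0.0016) on the log2 scale. At 4 h the rise was 0.87 with TRAP1 and 0.86 with TRAP-1-NegP. With JQ1 it was 0.43 (adjusted p 0.014), a call that was lost without the third DMSO library (0.31, adjusted p 0.13), without the first JQ1 library (0.39, adjusted p 0.054) and by library totals (0.30, adjusted p 0.091). DDIT3 overlaps the end of MARS (chr12:57488068-57516652), so that reads of the overlap may have been shared between them.

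ATF5, a factor translated in the same manner as ATF4, rose at 4 h by 0.81 with TRAP1, 0.86 with TRAP-1-NegP and 0.77 with JQ1, with a largest adjusted p of 1.4e-12, and was at 0.10 and -0.13 with TRAP-1-NegB and MS78 (adjusted p 0.73 and 0.26). CEBPB, a partner of ATF4, rose at 4 h by 0.78 with TRAP1, 0.42 with TRAP-1-NegP and 0.62 with JQ1, and fell by 0.37 with MS78 at 2 h (adjusted p 0.0014). Its rise of 0.26 with TRAP1 at 2 h was lost by library totals (0.14, adjusted p 0.25) and without the third TRAP1 library (0.21, adjusted p 0.11). CEBPG, another partner, went the other way with TRAP1 at 4 h (-0.26, adjusted p 0.036). That fall was -0.40 without the first TRAP1 library, and the call was lost without the second or the third TRAP1 or the first or second DMSO library (-0.16 to -0.26), with an adjusted p of 0.29 at most. NUPR1, a stress-induced chromatin protein at about 1 TPM, was called in none of the 10 comparisons and ranged from -1.28 to 0.52 with SEs of 0.94 to 0.99, too coarse at this depth to show a change of that size. The smallest unadjusted p of edgeR was 0.20.

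**Figure D2:**
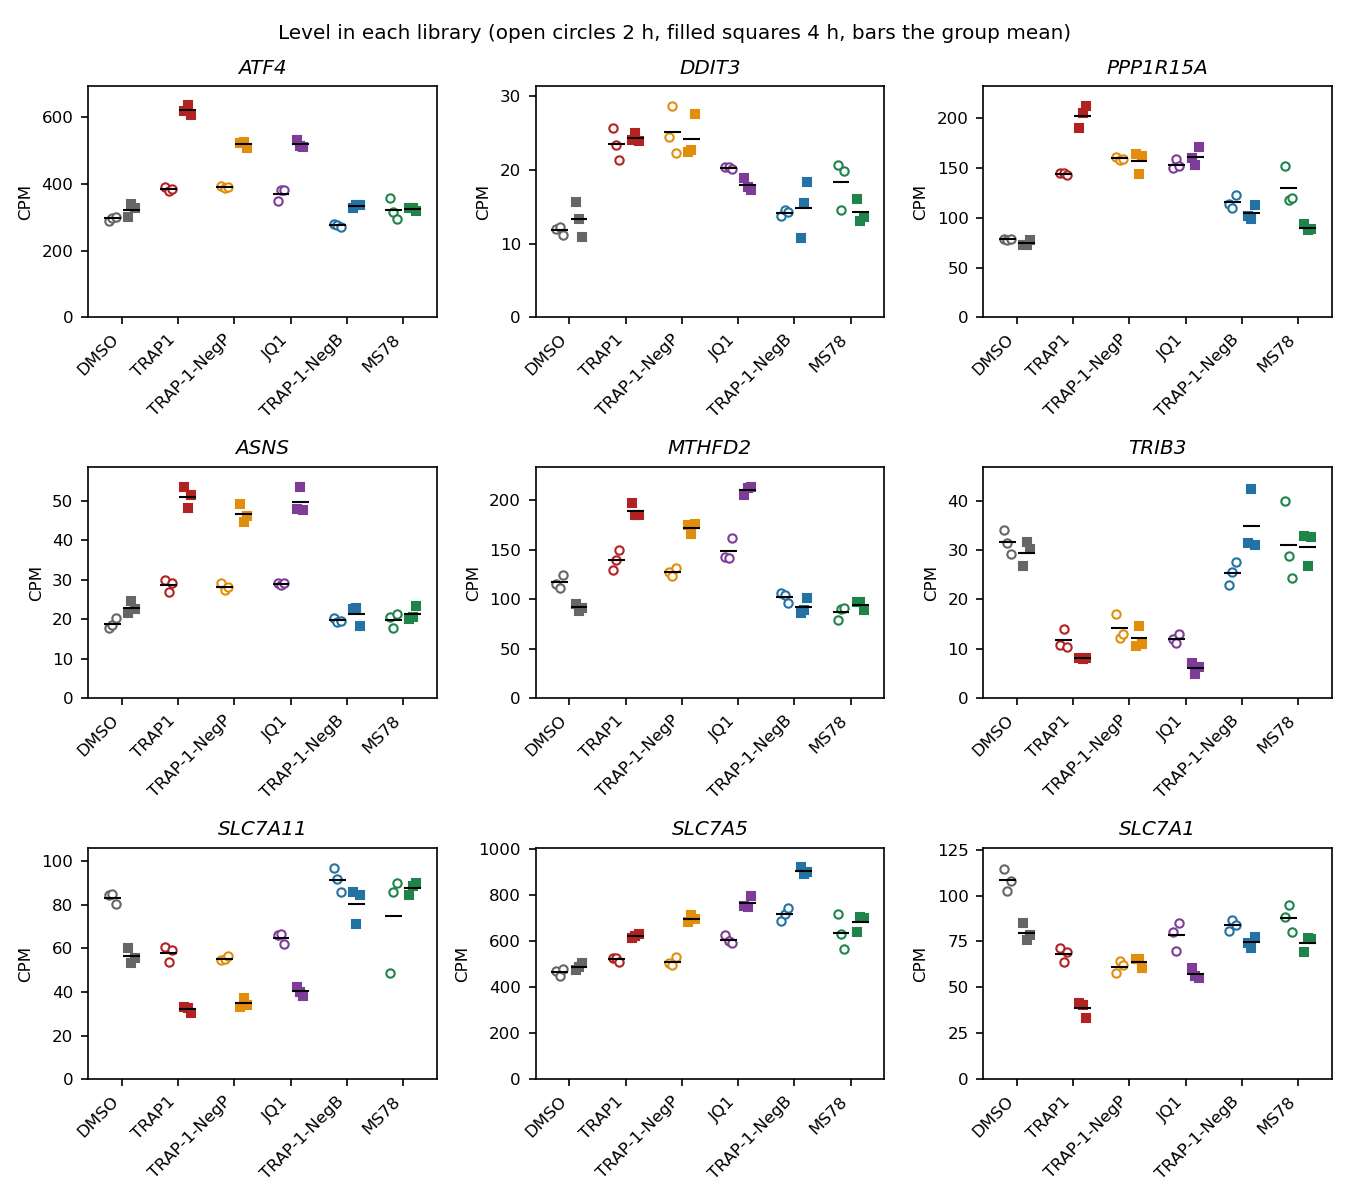
CPM (vertical axis, a scale for each gene) of 9 genes in each of the 36 libraries, by compound along the horizontal axis, with open circles for 2 h, filled squares for 4 h and a bar at each group's mean. All ATF4, PPP1R15A and ASNS libraries with TRAP1, TRAP-1-NegP or JQ1 lie above DMSO of the same time, and all TRIB3 libraries with these compounds lie below it.

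The feedback genes moved in opposite directions. PPP1R15A (chr19:48872421-48876058) encodes GADD34, which brings a phosphatase to eIF2 and restores translation. It stood at 78.3, 77.8 and 79.2 CPM in DMSO at 2 h and 72.8, 72.5 and 78.2 CPM at 4 h, and at 145.0, 145.3 and 143.2 CPM with TRAP1 at 2 h and 190.5, 206 and 212 CPM at 4 h. With TRAP-1-NegP the libraries held 161, 159 and 159.5 CPM and then 164, 144 and 162 CPM, and with JQ1 150.0, 159 and 152 CPM and then 160.4, 153 and 171 CPM. With TRAP-1-NegB they held 114, 109.6 and 123 CPM and then 101.5, 98.5 and 113 CPM, and with MS78 152, 118 and 119.7 CPM and then 94.0, 87.6 and 89.1 CPM. This was the single gene of the list called higher in all 10 comparisons, and every treated library lay above every DMSO library of its time.

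The log2 rise of PPP1R15A was largest with TRAP1 at 4 h, 1.45 (SE 0.07, adjusted p 1.3e-23), a 2.72-fold level. TRAP-1-NegP gave 1.03 and 1.07 and JQ1 0.97 and 1.12 at 2 and 4 h. TRAP-1-NegB gave 0.56 and 0.49 (adjusted p 8.4e-06), and MS78 0.73 and 0.28 (adjusted p 0.0057).

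TRIB3 (chr20:380760-397559) encodes a pseudokinase that binds ATF4 and limits its activity, and is usually counted among the genes ATF4 induces. Its level was 34.0, 31.3 and 29.3 CPM in DMSO at 2 h and 26.7, 31.5 and 30.2 CPM at 4 h, and 10.7, 14.1 and 10.4 CPM with TRAP1 at 2 h and 8.21, 7.86 and 8.17 CPM at 4 h. TRAP-1-NegP gave 17.1, 12.2 and 13.1 CPM and then 10.6, 14.7 and 11.1 CPM, and JQ1 gave 11.9, 11.2 and 13 CPM and then 7.23, 4.85 and 6.28 CPM. TRAP-1-NegB gave 23.0, 25.6 and 27.6 CPM and then 31.5, 42.3 and 30.9 CPM, and MS78 gave 40.0, 28.8 and 24.3 CPM and then 32.8, 26.7 and 32.5 CPM. The highest TRAP1, TRAP-1-NegP or JQ1 library, at 17.1 CPM, was below the lowest DMSO library, at 26.7 CPM.

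TRIB3 was thus 3.65-fold lower with TRAP1 at 4 h (log2 change -1.87, SE 0.17, adjusted p 3.2e-14), 4.82-fold lower with JQ1 (-2.27, SE 0.17, adjusted p 7.9e-17) and 2.42-fold lower with TRAP-1-NegP (-1.28, SE 0.16, adjusted p 2.7e-09). At 2 h the changes were -1.43, -1.39 and -1.16 in the same order of compounds. With TRAP-1-NegB they were -0.31 and 0.24 (adjusted p 0.22 and 0.64), and with MS78 -0.02 and 0.06 (adjusted p 0.97 and 0.86).

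CHAC1, which degrades glutathione, ran from 2.66 to 3.93 CPM in the DMSO libraries. It was called higher with JQ1 at 2 h (1.08, SE 0.26, adjusted p 0.001) and with TRAP1, TRAP-1-NegP and JQ1 at 4 h (0.78, 0.82 and 0.84). At 4 h the TRAP1 call was lost without the first TRAP1 library (0.60, adjusted p 0.083), without the third DMSO library (0.70, adjusted p 0.055) and by library totals (0.52, adjusted p 0.094), the TRAP-1-NegP call without its first library (0.67, adjusted p 0.069) and the JQ1 call without the third JQ1 library (0.68, adjusted p 0.052). VLDLR, a lipoprotein receptor induced by ATF4 in the liver, ranged from -0.50 to -0.15 over the 10 comparisons with SEs of 0.41 to 0.42, and edgeR's smallest unadjusted p was 0.25.

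Among the enzymes, ASNS and MTHFD2 rose most. ASNS (chr7:97851677-97928441) makes asparagine. It stood at 17.9, 18.5 and 20.3 CPM in DMSO at 2 h and 21.7, 24.6 and 22.6 CPM at 4 h, and at 30, 26.9 and 29.3 CPM with TRAP1 at 2 h and 53.5, 48.3 and 51.5 CPM at 4 h. TRAP-1-NegP gave 29.1, 27.5 and 28.2 CPM and then 49.3, 44.7 and 46.1 CPM, and JQ1 29.1, 28.6 and 29.3 CPM and then 48.1, 53.5 and 47.8 CPM. TRAP-1-NegB gave 20.3, 19.2 and 19.6 CPM and then 22.6, 22.8 and 18.4 CPM, and MS78 20.7, 17.7 and 21.3 CPM and then 20.1, 20.5 and 23.2 CPM. Libraries with TRAP1, TRAP-1-NegP or JQ1 lay above DMSO without overlap, and those with TRAP-1-NegB and MS78 overlapped it at both times.

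At 4 h the ASNS level was 2.22-fold that of DMSO with TRAP1 (log2 1.15, SE 0.10, adjusted p 4.0e-14), 2.03-fold with TRAP-1-NegP (1.02, adjusted p 4.4e-12) and 2.17-fold with JQ1 (1.11, adjusted p 1.1e-13). At 2 h the log2 rises were 0.61, 0.58 and 0.62. TRAP-1-NegB and MS78 gave -0.12 and -0.11 at 4 h (adjusted p 0.79 and 0.55).

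MTHFD2 (chr2:74198615-74217565), a mitochondrial enzyme of one-carbon metabolism, rose mainly at the later time. DMSO libraries held 115, 112 and 124.5 CPM at 2 h and 95.6, 88.3 and 91.5 CPM at 4 h, and TRAP1 libraries 129, 139.5 and 149.9 CPM and then 198, 185.5 and 185 CPM. TRAP-1-NegP libraries held 127, 124 and 131.5 CPM and then 175, 166 and 176.5 CPM, and JQ1 libraries 142, 142 and 161.5 CPM and then 205, 213 and 214 CPM. TRAP-1-NegB libraries held 106, 104 and 96.1 CPM and then 86.1, 89.4 and 101 CPM, and MS78 libraries 78.9, 90.4 and 91.5 CPM and then 96.9, 97.4 and 89.0 CPM. At 2 h all MS78 libraries were below DMSO, and at 4 h the libraries of both MS78 and TRAP-1-NegB overlapped it.

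The log2 change of MTHFD2 at 4 h was 1.04 with TRAP1 (SE 0.07, adjusted p 8.1e-19), 0.91 with TRAP-1-NegP (adjusted p 3.7e-16) and 1.2 with JQ1 (adjusted p 3.1e-21). At 2 h it was 0.25 with TRAP1 (adjusted p 0.0033), 0.12 with TRAP-1-NegP (adjusted p 0.19) and 0.34 with JQ1 (adjusted p 7.9e-05). The TRAP1 call at 2 h was lost by library totals (0.13, adjusted p 0.18) and without the third TRAP1 library (0.18, adjusted p 0.071). MTHFD2 fell by 0.43 with MS78 at 2 h (adjusted p 6.9e-06). Its fall of 0.20 with TRAP-1-NegB at 2 h had an adjusted p of 0.049 and was lost under the DESeq2 size factors (-0.19, adjusted p 0.071) and without any 1 of the 6 libraries compared (-0.23 to -0.11).

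The serine pathway moved less. PSAT1, its second enzyme, rose at 4 h by 0.63 with TRAP1 (adjusted p 5.3e-07, and by 0.36 by library totals), 0.34 with TRAP-1-NegP (lost by library totals, 0.17, adjusted p 0.22) and 0.43 with JQ1. PHGDH, its first enzyme, rose at 2 h by 0.41 with TRAP1, 0.54 with TRAP-1-NegP and 0.39 with MS78. Without the first MS78 library the latter was 0.26 (adjusted p 0.065). The PHGDH rise of 0.31 with TRAP1 at 4 h was 0.04 (adjusted p 0.73) by library totals and 0.21 (adjusted p 0.091) without the first DMSO library. SHMT2, which passes the carbon of serine to folate, was called higher by 0.17 to 0.22 in 4 of the 10 comparisons, but each of these calls was lost without 1 or more single libraries. SHMT2 with JQ1 at 4 h (-0.16, adjusted p 0.042) and PSPH, the last enzyme of serine synthesis, with JQ1 at 4 h (-0.38, adjusted p 0.031) were called lower. The first became -0.12 (adjusted p 0.18) without the third DMSO library and the other -0.26 (adjusted p 0.20) without the first JQ1 library.

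The transporters divided. SLC7A1 (chr13:29509414-29595688), the carrier of arginine and lysine, fell with all 5 compounds at 2 h. It stood at 115, 103 and 108 CPM in DMSO at 2 h and 85.0, 75.9 and 78.6 CPM at 4 h, and at 71.2, 63.8 and 69.4 CPM with TRAP1 at 2 h and 41.5, 40.6 and 33.5 CPM at 4 h. TRAP-1-NegP gave 57.8, 64.3 and 62.0 CPM and then 65.3, 65.7 and 60.7 CPM, and JQ1 80.1, 69.9 and 85.1 CPM and then 60.4, 56.5 and 55.2 CPM. TRAP-1-NegB gave 80.9, 86.6 and 83.9 CPM and then 74.4, 71.5 and 77.5 CPM, and MS78 88.6, 94.7 and 80.1 CPM and then 69.3, 77.0 and 76.3 CPM. At 2 h every treated library lay below every DMSO library, and at 4 h TRAP1 libraries were lowest and those of TRAP-1-NegB and MS78 overlapped DMSO.

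SLC7A1 fell at 2 h by 0.67 with TRAP1 (adjusted p 2.4e-09), 0.82 with TRAP-1-NegP (adjusted p 8.7e-12), 0.47 with JQ1, 0.37 with TRAP-1-NegB (adjusted p 8.4e-04) and 0.30 with MS78 (adjusted p 0.0058). Without the first DMSO library the last of these was -0.25 (adjusted p 0.066). At 4 h it fell by 1.05 with TRAP1 (SE 0.08, adjusted p 1.1e-15), a 2.07-fold lower level, against 0.32 with TRAP-1-NegP and 0.48 with JQ1.

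SLC7A11 (chr4:138164097-138242349), the cystine importer that feeds glutathione synthesis, changed in both directions. Its DMSO libraries ran from 80.3 to 84.8 CPM at 2 h and from 53.4 to 60.3 CPM at 4 h, TRAP1 libraries from 53.9 to 60.5 and then 30.2 to 33.3 CPM, TRAP-1-NegP libraries from 54.5 to 56.4 and then 33.1 to 37.4 CPM, and JQ1 libraries from 61.9 to 66.6 and then 38.4 to 42.5 CPM. At 4 h MS78 libraries ran from 84.7 to 90.2 CPM and TRAP-1-NegB libraries from 71.3 to 85.9 CPM, all above DMSO. At 4 h it was 1.76-fold lower with TRAP1 (log2 change -0.82, adjusted p 1.1e-07) and fell by 0.69 and 0.49 on the log2 scale with TRAP-1-NegP and JQ1. It was 1.56-fold higher with MS78 (0.64, adjusted p 6.8e-05).

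With TRAP-1-NegB SLC7A11 was 1.43-fold higher at 4 h (0.51, adjusted p 0.0077), a call lost by library totals (0.48, adjusted p 0.066) and without the second or the third DMSO library (adjusted p 0.13 and 0.095) or the first or the third TRAP-1-NegB library (adjusted p 0.080 and 0.073). Its fall with JQ1 at 2 h (-0.36, adjusted p 0.012) was lost without the first DMSO library (-0.34, adjusted p 0.065), the second (-0.33, adjusted p 0.070) or the third JQ1 library (-0.33, adjusted p 0.054). At 2 h the first MS78 library, at 48.9 CPM, stood apart from the other pair, at 85.8 and 90.2 CPM.

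SLC7A5 (chr16:87830023-87869507), the carrier of leucine and other large neutral amino acids, rose most with TRAP-1-NegB. DMSO libraries ran from 447 to 480 CPM at 2 h and from 477 to 504 CPM at 4 h, TRAP1 libraries from 511 to 529 and then 613 to 632 CPM, and TRAP-1-NegB libraries from 689 to 744 and then 890.5 to 925 CPM. MS78 gave 566 to 717 and then 642 to 704 CPM, TRAP-1-NegP 495 to 531 and then 683 to 714 CPM, and JQ1 593 to 627 and then 750.3 to 796 CPM. The rise with TRAP-1-NegB was 0.62 at 2 h (adjusted p 5.0e-13) and 0.89 at 4 h (SE 0.05, adjusted p 6.6e-19), a 1.85-fold level. With TRAP1 the rises of 0.16 and 0.34 (adjusted p 3.0e-07 at 4 h) became 0.04 and 0.08 by library totals (adjusted p 0.60 and 0.18), and the 2 h call was also lost without the first or second TRAP1 library (adjusted p 0.052 and 0.078).

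Its partner chain SLC3A2 rose by 0.40 with TRAP-1-NegB at 4 h (adjusted p 1.2e-06) and by 0.40 with MS78 at 2 h. With TRAP1 at 4 h it was called higher by 0.14 with TMM and lower, at -0.13, with library totals, and the former was lost without any DMSO library and without the second or the third TRAP1 library (0.10 to 0.14). SLC1A5, the glutamine carrier, rose by 0.60 to 0.70 in all 6 comparisons of TRAP1, TRAP-1-NegP and JQ1 (with TRAP1 at 4 h by 0.43 by library totals), and was at 0.00 and -0.16 with TRAP-1-NegB and MS78 at 4 h (adjusted p 1 and 0.060).

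SLC38A2, a sodium-coupled carrier of small neutral amino acids, fell by 0.37, 0.39, 0.52 and 0.35 at 2 h with TRAP1, TRAP-1-NegP, JQ1 and MS78. The last of these was -0.14 (adjusted p 0.080) without the first MS78 library and was lost without any 1 of the DMSO libraries too (-0.35 to -0.33). At 4 h it rose with JQ1 (0.42, adjusted p 0.0017, and 0.29 with adjusted p 0.053 by library totals), and was 0.16 and 0.15 with TRAP1 and TRAP-1-NegP (adjusted p 0.24 and 0.30).

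SLC1A4 (chr2:64988479-65023865), a carrier of alanine and serine, had the largest fold changes of the transporters and the lowest level. DMSO libraries held 0.992, 1.55 and 0.412 CPM at 2 h and 0.592, 1.48 and 1.22 CPM at 4 h, and TRAP1 libraries 1.47, 2.30 and 2.09 CPM and then 3.11, 2.48 and 2.11 CPM. TRAP-1-NegP libraries held 1.25, 1.92 and 2.17 CPM and then 3.97, 0.983 and 4.27 CPM, and JQ1 libraries 2.25, 1.37 and 1.29 CPM and then 3.37, 3.06 and 3.04 CPM. TRAP-1-NegB libraries held 0.770, 1.24 and 0.394 CPM and then 1.28, 1.24 and 0.736 CPM, and MS78 libraries 0.963, 1.13 and 0.854 CPM and then 0.239, 1.48 and 0.629 CPM. JQ1 and TRAP1 libraries lay above DMSO at 4 h, while the second TRAP-1-NegP library lay within it.

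The log2 change of SLC1A4 at 4 h was 1.52 with JQ1 (SE 0.54, adjusted p 0.017), 1.48 with TRAP-1-NegP (adjusted p 0.027) and 1.23 with TRAP1 (adjusted p 0.058). Both calls were lost without the first DMSO library, which left 1.23 with JQ1 (adjusted p 0.094) and 1.18 with TRAP-1-NegP (adjusted p 0.14). The TRAP-1-NegP call was also lost without the third DMSO library or its own first or the third library (1.17 to 1.57) and by library totals (1.3, adjusted p 0.051).

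The tRNA synthetases join amino acids to their tRNAs, and their changes were small. At 2 h, 7 of the 12 were called higher and 0 lower with TRAP1, 8 and 0 with TRAP-1-NegP and 8 and 0 with JQ1, where 14.9% to 16.4% of all genes were higher. At 4 h it was 6 higher and 1 lower with TRAP1, 4 and 2 with TRAP-1-NegP and 4 and 4 with JQ1, where 18.6% to 24.3% of all genes were higher and 18.9% to 24.6% lower. The difference between the times was itself called, in each case lower at 4 h, for 4 of the 12 with TRAP1, 5 with TRAP-1-NegP and 3 with JQ1. By library totals the counts at 4 h were 0 higher and 6 lower with TRAP1, 1 and 6 with TRAP-1-NegP and 2 and 5 with JQ1, and those at 2 h were 4 and 0, 2 and 1, and 5 and 0, where 30.2% to 39.7% of all genes were lower at 4 h and 9.36% to 9.99% higher at 2 h. The direction of the group at 4 h therefore depends on the scaling, and the falls of AARS and MARS with TRAP-1-NegP and JQ1 were called under each of the 3 scalings.

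AARS (chr16:70252298-70289506), which charges the alanine tRNA, was called higher than DMSO with 4 of the 5 compounds at 2 h and lower with TRAP-1-NegP and JQ1 at 4 h. DMSO libraries held 126, 138 and 127 CPM at 2 h and 182, 185 and 192 CPM at 4 h, and TRAP1 libraries 146, 152 and 154 CPM and then 179.9, 165 and 164 CPM. TRAP-1-NegP libraries held 157, 159.5 and 153 CPM and then 155, 154 and 148 CPM, and JQ1 libraries 147, 154 and 144 CPM and then 124, 130.5 and 133 CPM. TRAP-1-NegB libraries held 142, 146 and 144 CPM and then 176, 178 and 191 CPM, and MS78 libraries 181, 152 and 161 CPM and then 195, 191 and 184 CPM. The level in DMSO itself rose by 0.52 from 2 to 4 h (adjusted p 5.8e-09), and the JQ1 and TRAP-1-NegP libraries did not follow it.

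AARS rose at 2 h by 0.21 with TRAP1 (adjusted p 0.0045), 0.27 with TRAP-1-NegP, 0.19 with JQ1 and 0.34 with MS78 (adjusted p 3.0e-05). Those of TRAP1, TRAP-1-NegP and JQ1 were lost by library totals, with values of 0.09, 0.13 and 0.10, and that of JQ1 also without the third DMSO or second JQ1 library (adjusted p 0.062 and 0.074). At 4 h AARS fell by 0.53 with JQ1 (SE 0.06, adjusted p 9.3e-11) and by 0.29 with TRAP-1-NegP (adjusted p 8.6e-05). With TRAP1 its change was -0.14 (adjusted p 0.058), and -0.18 (adjusted p 0.019) without the first TRAP1 library.

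GARS (chr7:30594735-30634033), which charges the glycine tRNA, stood at 149, 158 and 150.0 CPM in DMSO at 2 h and 179, 187 and 186 CPM at 4 h, and at 201.5, 196 and 222 CPM with TRAP1 at 2 h and 214.5, 232 and 226 CPM at 4 h. TRAP-1-NegP gave 230.0, 221 and 201 CPM and then 206, 203 and 221 CPM, and JQ1 187, 197 and 195 CPM and then 197, 223 and 202 CPM. TRAP-1-NegB gave 191, 181 and 183 CPM and then 186, 191.5 and 203.5 CPM, and MS78 212, 183 and 194 CPM and then 206.5, 203 and 212 CPM. At 2 h every treated library lay above every DMSO library, and at 4 h those of TRAP-1-NegB overlapped DMSO. The rise at 2 h was 0.44 with TRAP1 (adjusted p 5.5e-08), 0.51 with TRAP-1-NegP (adjusted p 1.2e-09) and 0.34 with JQ1. At 4 h the rises of 0.28, 0.19 and 0.17 became 0.01, 0.01 and 0.04 by library totals, and that of JQ1 was 0.11 (adjusted p 0.18) without the second JQ1 library.

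Of the other synthetases, EPRS, which charges both glutamate and proline tRNAs, rose in all 6 comparisons of TRAP1, TRAP-1-NegP and JQ1 by 0.18 to 0.48. By library totals its values with TRAP1 and TRAP-1-NegP at 4 h were 0.05 and 0.01. NARS rose by 0.40 with TRAP1 at 2 h and by 0.41 with JQ1 at 4 h. MARS, the methionine enzyme, fell at 4 h by 0.28 with TRAP1, 0.27 with TRAP-1-NegP and 0.48 with JQ1 (adjusted p 4.1e-09), and CARS fell with JQ1 at 4 h (-0.39, adjusted p 2.1e-04). TARS and WARS rose by 0.20 to 0.28 at 2 h with TRAP1, TRAP-1-NegP and JQ1. By library totals WARS was at 0.08, 0.09 and 0.14 with these compounds and TARS at 0.16, 0.08 and 0.15, and the calls of WARS with TRAP1 and TRAP-1-NegP and of TARS with TRAP-1-NegP were lost. Over both times and the same compounds, YARS, SARS, IARS and LARS gave values between -0.19 and 0.26. With TRAP-1-NegB at 2 h, EPRS, GARS, NARS and TARS were called higher by 0.26 to 0.31.

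The 12 may be set beside the remaining synthetases. Of 8 other cytosolic enzymes, 6 were called higher and 0 lower with TRAP1 at 2 h (median 0.28) and 4 higher and 1 lower at 4 h (median 0.10), with a rise of 0.50 in QARS and 0.27 in KARS and a fall of 0.36 in FARSA at 4 h. Of 17 mitochondrial enzymes, encoded by separate genes, 0 were higher and 3 lower at 2 h, and 3 were higher and 7 lower at 4 h (median -0.31). Of all tested genes with TRAP1, 15.8% were higher and 14.3% lower at 2 h and 22.2% and 24.5% at 4 h. The counts of both lists are those with TMM scaling. YARS2 fell by 1.57 with TRAP1, 1.32 with TRAP-1-NegP and 1.83 with JQ1 at 4 h, TARS2 by 1.04, 0.89 and 1.2, and MARS2 rose by 0.59, 0.69 and 0.89. The matched letters of the response element stood in 0 of 6 windows of the other cytosolic enzymes and in 1 of 14 of the mitochondrial ones.

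**Figure D3:**
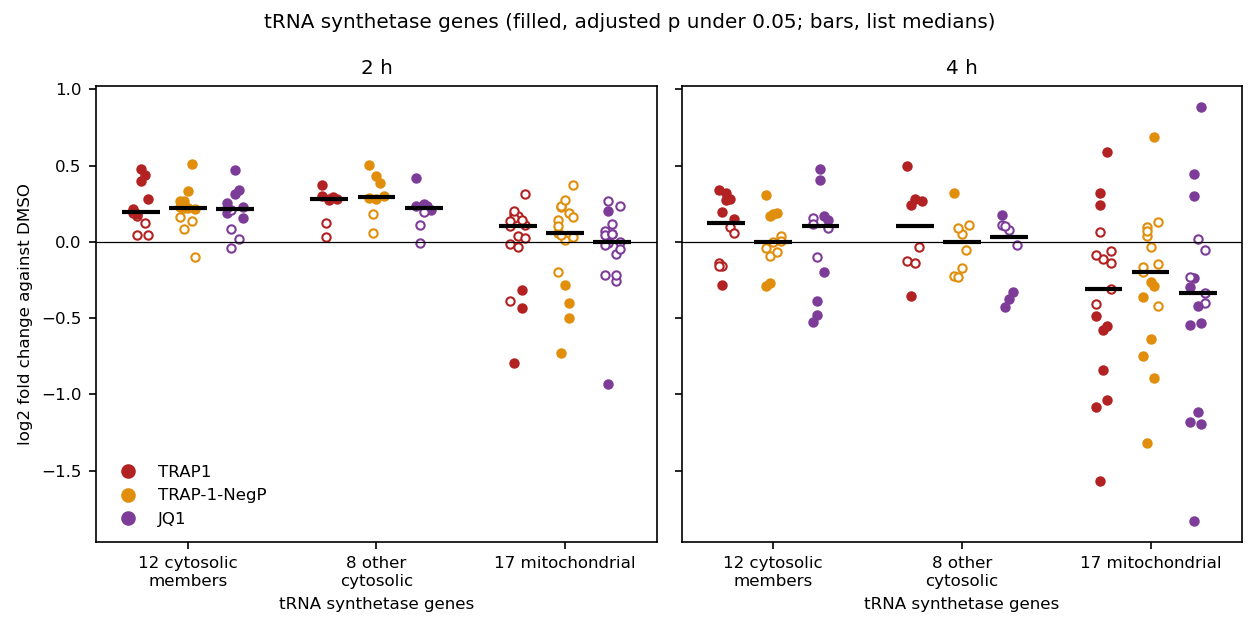
Log2 change against DMSO (vertical axis) of the 12 listed, 8 other cytosolic and 17 mitochondrial tRNA synthetases with TRAP1, TRAP-1-NegP and JQ1 at 2 and 4 h, with a point per gene, filled where called, and a bar at the median. With TRAP1 the medians are 0.20, 0.28 and 0.11 at 2 h and 0.12, 0.10 and -0.31 at 4 h, in the order listed, other cytosolic and mitochondrial.

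Comparisons between compounds ask where TRAP1 differed from each of the others at the same dose and time. In total 10 pairs were compared, 8 of them with TRAP1, and p-values were adjusted over all genes within each pair. Against TRAP-1-NegP at 2 h, 0 of the 35 genes were called by edgeR, where 0.801% of all tested genes were. At an unadjusted p under 0.05 the count was 6, the DESeq2 Wald test called 0, and a fit of these 2 groups alone called 5. The share of 0.801% is that of the main fit and does not apply to these counts. The fit of the 2 groups alone called more of all genes as well, as given at the end. The 95% interval of the difference lay within a 1.5-fold change for 30 of 31 genes, leaving aside NUPR1, VLDLR, SLC1A4 and CHAC1 for their low counts. The exception was TRIB3, with a difference of -0.27 and an interval of -0.60 to 0.06. For ATF4 the difference was -0.02, with an interval of -0.12 to 0.08.

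At 4 h TRAP1 and TRAP-1-NegP differed in 9 of the 35 genes, 6 higher and 3 lower with TRAP1, where 15.3% of all tested genes differed. TRAP1 was higher for PPP1R15A by 0.37 (adjusted p 1.2e-04), CEBPB by 0.36 (adjusted p 0.0014), PSAT1 by 0.29, PHGDH by 0.29, NARS by 0.28 (adjusted p 9.0e-04) and ATF4 by 0.26 (adjusted p 1.9e-04). It was lower for SLC7A1 by 0.73 (SE 0.08, adjusted p 2.2e-09), which was the largest of these differences. The calls of PSAT1 and PHGDH were lost by library totals (adjusted p 0.22 and 0.14), and the ATF4 difference was then 0.17 (adjusted p 0.0062). The PSAT1 call was lost without any 1 of the 6 libraries (0.24 to 0.32) and the PHGDH call without 4 of them (0.23 to 0.28), the second or the third TRAP1 and the first or the third TRAP-1-NegP library.

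TRIB3 was lower with TRAP1 than with TRAP-1-NegP by 0.59 (adjusted p 0.011), a call lost without the second TRAP-1-NegP library (-0.42, adjusted p 0.14) and in a fit of these 2 groups alone (-0.58, adjusted p 0.078). SLC7A5 was lower by 0.17 (adjusted p 0.027), which was lost with length-scaled counts (-0.13, adjusted p 0.070) and without the first TRAP1 or the second or the third TRAP-1-NegP library (-0.17 to -0.15). For ASNS, MTHFD2 and DDIT3 the differences were 0.13 (interval -0.07 to 0.33), 0.14 (interval -0.00097 to 0.27) and 0.01 (interval -0.28 to 0.30), all short of the threshold, which leaves differences up to these bounds possible.

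Against JQ1 at 2 h, 1 of the 35 genes differed, SLC7A5, at -0.22 with TRAP1 less JQ1 (adjusted p 0.015), where 1.99% of all tested genes differed. That call was lost without the first JQ1 library or the first or the third TRAP1 library (-0.22 to -0.19). At 4 h 16 differed, 11 higher and 5 lower with TRAP1, where 27.4% of all tested genes differed. By library totals it was 7 higher and 11 lower, where 6.72% of all genes were higher and 25.1% lower. ATF4 was then higher by 0.12 (adjusted p 0.042). The 7 higher under each of the 3 scalings were ATF4 (0.26, adjusted p 1.1e-04), PPP1R15A (0.33), PHGDH (0.41), SHMT2 (0.33), AARS (0.39), SARS (0.29) and YARS (0.30). By library totals these differences were 0.19 for PPP1R15A, 0.27 for PHGDH, 0.19 for SHMT2, 0.25 for AARS and 0.15 for SARS and YARS. The 4 lower were SLC7A1 (-0.57, adjusted p 4.7e-07), CEBPG (-0.44), LARS (-0.32) and SLC7A5 (-0.30). The LARS call was lost without the second JQ1 or the first or the third TRAP1 library (-0.27 to -0.25). TRIB3 was higher with TRAP1 than with JQ1 by 0.40, with an interval of 0.04 to 0.76 and an adjusted p of 0.088.

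**Figure D4:**
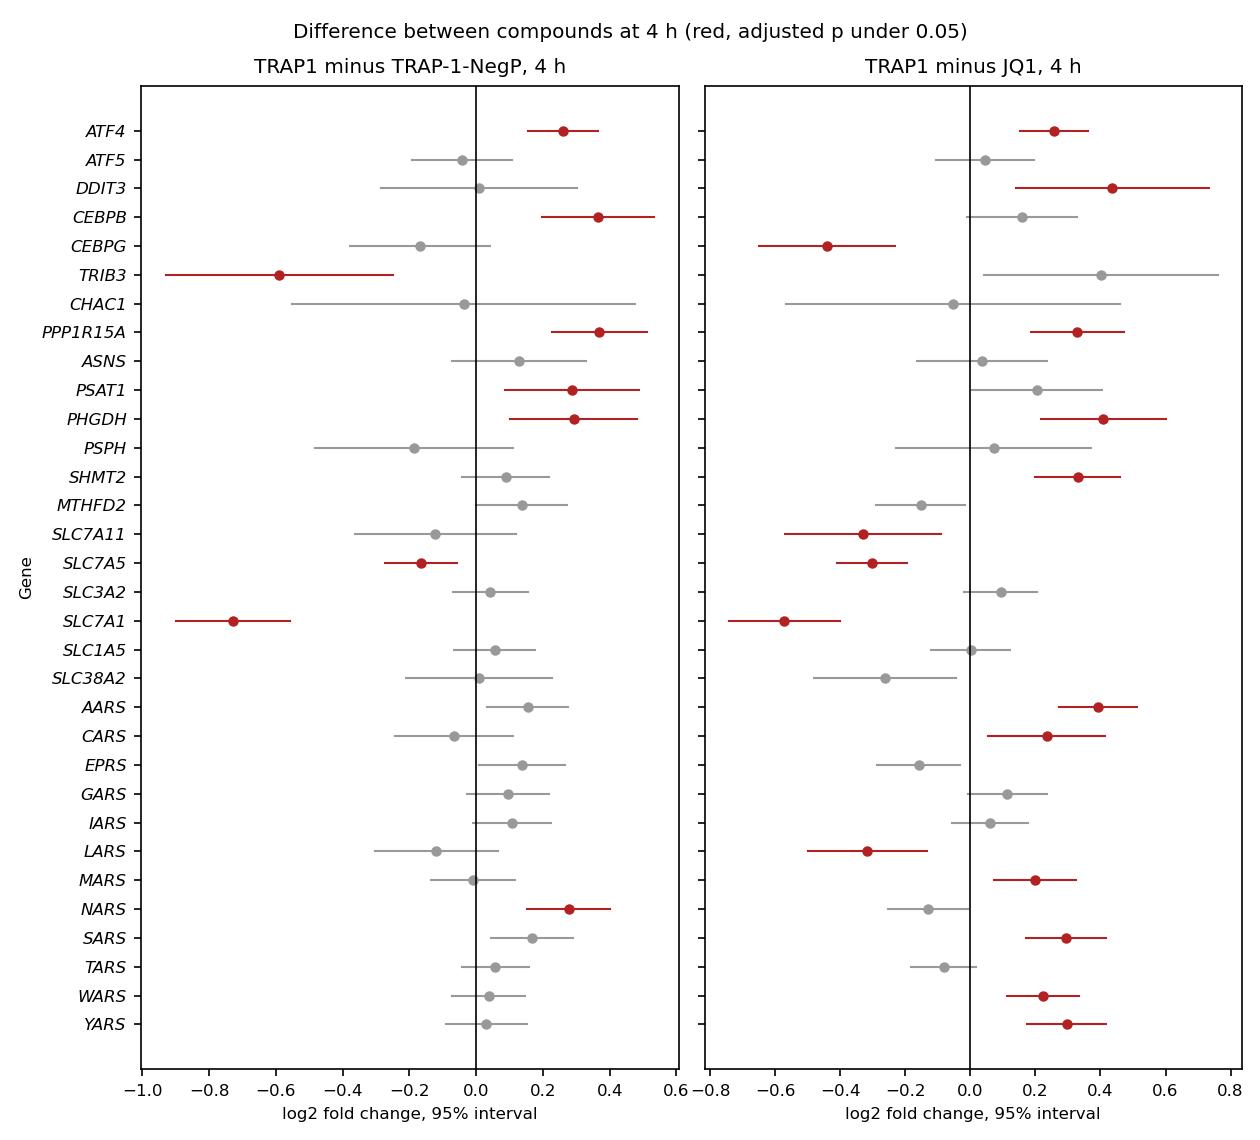
Log2 difference at 4 h (horizontal axis) of TRAP1 from TRAP-1-NegP and of TRAP1 from JQ1 for 32 genes (rows), with 95% intervals and red points where the difference was called. SLC7A1 lies farthest to the left in the TRAP-1-NegP panel at -0.73, and ATF4 lies to the right of 0 in both panels at 0.26.

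TRAP1 differed from TRAP-1-NegB in 18 of the 35 genes at 2 h, where 20.7% of all tested genes differed, and in 23 at 4 h, where 46.1% did. At 4 h ATF4 was higher with TRAP1 by 0.90, ASNS by 1.27 and MTHFD2 by 1.04, while TRIB3 was lower by 2.11, SLC7A11 by 1.33 and SLC7A5 by 0.54. Against MS78, 15 genes differed at 2 h, where 22.6% of all tested genes did, and 25 at 4 h, where 49.3% did. Without the first MS78 library at 2 h, 17 differed, with SLC3A2 lost (-0.07, adjusted p 0.38), DDIT3, PPP1R15A and SLC38A2 called, and PSAT1 at 0.25 in place of 0.43. Over all genes, leaving out 1 library gave 2617 to 3703 calls for TRAP1 against MS78 at 2 h, against 3388 in the main fit. At 4 h ATF4 was higher by 0.94, ASNS by 1.26 and MTHFD2 by 1.00, and TRIB3 was lower by 1.92 and SLC7A11 by 1.46. With TMM 16 genes were higher and 9 lower than with MS78 at 4 h. By library totals the counts were 10 and 17, where 11.2% and 44% of all genes were higher and lower. ATF4 was then higher by 0.60 and MTHFD2 by 0.66. Against TRAP-1-NegB at 4 h the counts by library totals were 9 higher and 14 lower, where 12.1% and 37.9% of all genes were.

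JQ1 and TRAP-1-NegP were compared directly as well. At 2 h 5 of the 35 genes differed, where 12.9% of all tested genes did, and at 4 h 13 differed, where 25.7% did. At 4 h JQ1 was lower for TRIB3 by 0.99 (adjusted p 2.3e-05), YARS by 0.26, SHMT2 by 0.24 and AARS by 0.24, and higher for NARS by 0.41, EPRS by 0.30 and MTHFD2 by 0.29. Its lower DDIT3 level (-0.43, adjusted p 0.026) was lost without the second or the third JQ1 or the third TRAP-1-NegP library (-0.42 to -0.33). For ATF4 the difference was 0.00 (interval -0.10 to 0.11, adjusted p 0.98).

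The times were compared in DMSO and then for each compound's effect. In DMSO alone 17 of the 35 genes differed between 4 and 2 h, 14 higher and 3 lower, where 20.8% of all tested genes differed. PHGDH rose by 0.61, AARS by 0.52, SLC3A2 and SLC1A5 by 0.40, ATF5 and SHMT2 by 0.33 and MARS by 0.32, and SLC7A11 fell by 0.56, SLC7A1 by 0.44 and MTHFD2 by 0.35. By library totals the counts were 9 higher and 7 lower, where 7.65% of all genes were higher and 14.4% lower. ATF4 changed by 0.13 (adjusted p 0.080).

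The effect of TRAP1 differed between the times for 13 genes, 8 higher and 5 lower at 4 h, where 22.0% of all tested genes differed. By library totals 5 were higher and 11 lower, where 5.36% and 18.9% of all genes were. The 5 higher under each of the 3 scalings were PPP1R15A, ASNS, MTHFD2, ATF4 and CEBPB. The difference from DMSO grew from 2 to 4 h by 0.79 for MTHFD2 (adjusted p 9.8e-09), 0.56 for ATF4 (adjusted p 4.9e-08), 0.56 for PPP1R15A and 0.52 for CEBPB, and that of SLC7A1 fell by a further 0.38 (-0.28 with adjusted p 0.076 without the third TRAP1 library at 4 h). The TRAP-1-NegP effect differed for 14 genes, where 23.2% did, with gains of 0.79 for MTHFD2, 0.50 for SLC7A1 and 0.28 for ATF4. The SLC7A1 level with TRAP-1-NegP stayed within 57.8 to 65.7 CPM over both times, while that of DMSO fell by 0.44 on the log2 scale. The JQ1 effect differed for 13 genes, where 26.0% did, with gains of 0.94 for SLC38A2, 0.86 for MTHFD2 and 0.36 for ATF4 and a further fall of 0.88 for TRIB3. By library totals 6 were higher and 9 lower with TRAP-1-NegP, where 9.25% and 14% of all genes were. With JQ1 the counts were then 7 and 10, where 11.2% and 15.1% of all genes were.

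Between the times the difference of AARS from DMSO, whose own level rose, fell by 0.35 with TRAP1, 0.56 with TRAP-1-NegP and 0.72 with JQ1 (adjusted p 3.2e-09). With TRAP-1-NegB 1 gene differed between the times, SLC7A5 (0.27, adjusted p 0.041), where 2.48% of all tested genes did, and its call was lost by library totals (adjusted p 0.075) and without any 1 of the 12 libraries behind it. With MS78 10 genes differed, where 15.2% of all tested genes did, with SLC7A11 gaining 0.79 and MTHFD2 0.47 and SLC1A5 losing 0.47. Without the first MS78 library at 2 h that count was 5.

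**Figure D5:**
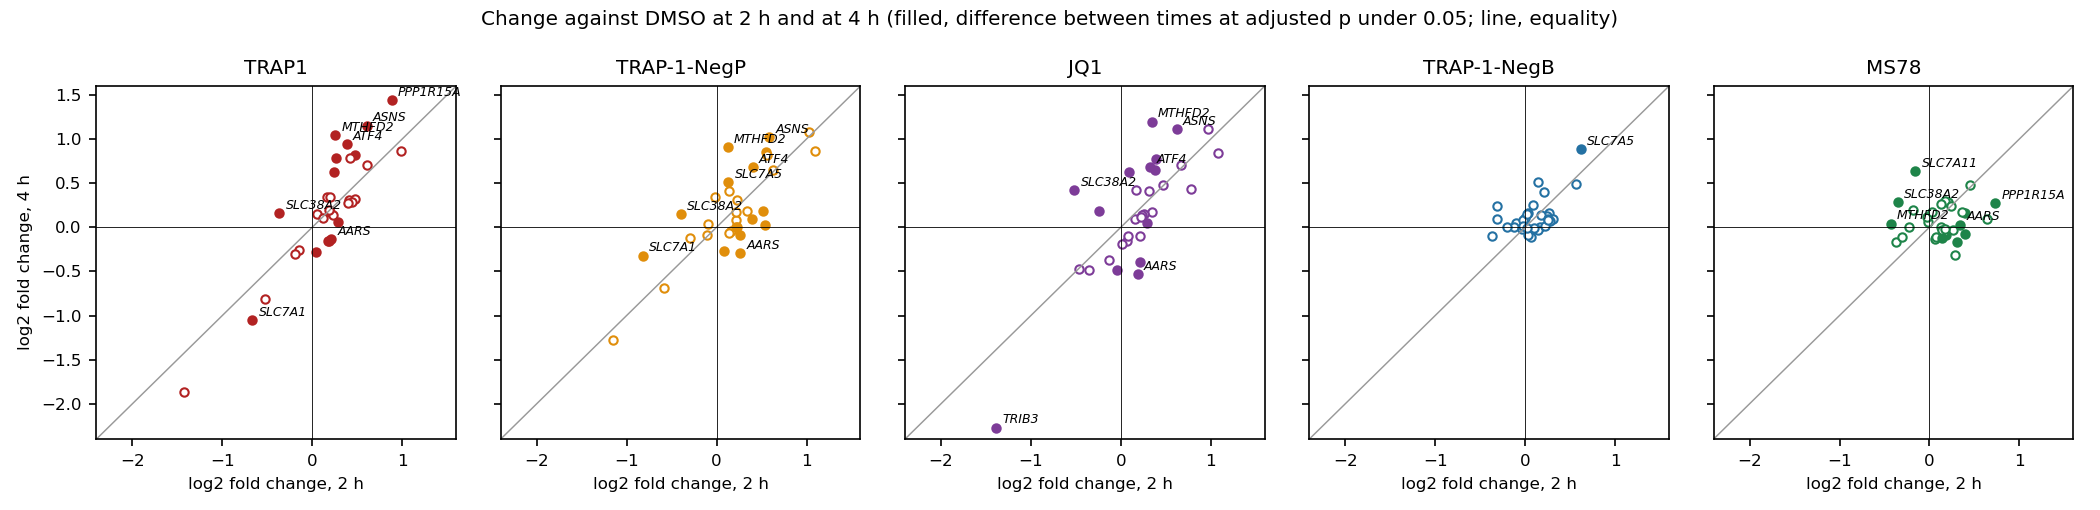
Log2 change against DMSO at 4 h (vertical axis) over that at 2 h (horizontal axis) for 32 genes with each of the 5 compounds, with filled points where the effect differed between the times and a diagonal of equal effects. MTHFD2 lies above the diagonal with TRAP1 (0.25 and 1.04), and TRIB3 lies below it with JQ1 (-1.39 and -2.27).

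Genes around the 36 were described from lists of the same pathway. Their counts and medians are those with TMM scaling. By library totals the median log2 change of all tested genes was -0.29 with TRAP1 at 4 h, so small medians and changes depend on the scaling. Of 20 further genes of the ATF4 programme, 6 were called higher and 4 lower with TRAP1 at 4 h, with a median of 0.13, which is near the 22.2% and 24.5% of all tested genes. GDF15, a secreted stress hormone, rose by 4.18 with TRAP1 (SE 0.16, adjusted p 4.2e-24) and was at 0.31 and -0.32 with TRAP-1-NegP and JQ1 (adjusted p 0.13 and 0.098). ATF3, a factor induced by ATF4, rose by 3.21, 1.77 and 2.11 with the 3 compounds, and SESN2, which curbs growth signalling when leucine is short, by 2.32, 1.58 and 1.79. DDIT4, another curb of that pathway, rose by 1.94 with TRAP1 and 0.57 with TRAP-1-NegP and was at 0.03 with JQ1 (adjusted p 0.82).

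Direct comparison at 4 h gave TRAP1 above TRAP-1-NegP by 3.88 for GDF15, 1.44 for ATF3, 1.37 for DDIT4 and 0.74 for SESN2, with a largest adjusted p of 9.0e-08. These 4 are also known to respond to other stresses. Genes of the same programme that fell with TRAP1 at 4 h were SLC6A9, the glycine carrier (-1.84), XPOT, which exports tRNAs (-0.78), SLC38A1, a glutamine carrier (-0.59), and PYCR1, which makes proline (-0.40).

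Of 17 genes for the eIF2 kinases, eIF2 and eIF2B, 7 were called higher and 2 lower with TRAP1 at 4 h, with a median of 0.12. Of all tested genes, 22.2% were higher and 24.5% lower. PPP1R15B, the constitutive partner of the eIF2 phosphatase, fell by 0.44 at 2 h and rose by 0.79 at 4 h with TRAP1, and rose by 1.30 with JQ1 at 4 h. EIF2B4 fell by 0.58, 0.46 and 0.75 with TRAP1, TRAP-1-NegP and JQ1. A further list held 10 genes of the response to misfolded proteins in the endoplasmic reticulum, chaperone genes and others such as XBP1 and HERPUD1. With TRAP1 at 4 h 8 were called higher and 1 lower, with a median of 0.83. The counts were 8 and 0 with TRAP-1-NegP, 8 and 1 with JQ1 and 5 and 0 with MS78. Of all tested genes, 22.2% were higher and 24.5% lower with TRAP1 and 18.6% and 18.9% with TRAP-1-NegP. The shares were 24.3% and 24.6% with JQ1 and 6.23% and 9.05% with MS78. HSPA5, which encodes the chaperone BiP, rose at 4 h by 1.34, 0.95 and 1.18 with TRAP1, TRAP-1-NegP and JQ1 and by 0.20 and 0.46 with TRAP-1-NegB and MS78, and HERPUD1 by 1.36, 1.4 and 1.5 with the first 3. Their part in the changes of the 36 genes was not tested.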

How the data were processed

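Gene counts are estimated counts that the authors made with Salmon 1.10.3 on hg38 through nf-core/rnaseq 3.18.0, per the submitters' processing notes, from polyA RNA sequenced in paired 150-base reads. Which annotation was used is not stated. Length-scaled estimated counts and TPM come from the deposited tables of the same run. All 36 columns were matched to samples by name, and the table had 61 duplicated gene names.

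Estimated counts were rounded and tested in R 4.3.3 with edgeR 4.0.16: filterByExpr with a minimum count of 10, TMM scaling and a robust quasi-likelihood fit of all 36 libraries with 12 group means (common biological coefficient of variation 0.135), two-sided, with Benjamini-Hochberg adjustment within each of 26 comparisons and calls at 0.05. The procedure was tested on simulated data. The SE holds counting error and the spread between libraries together. TPM compares genes and is not tested.

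The members and lists were chosen with earlier results of these data known. Values in every library are given for ATF4 and DDIT3 and for the pair with the largest called change in each role group. Time contrasts and other lists are named by up to 4 genes per direction. SLC7A11 and SLC7A5 were added after their values were seen.

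Alternatives were a fit without each library, without the other groups, with the replicate number as a block, on length-scaled counts, with a stricter count filter (a mean of 1 CPM in some group, with 10 counts in 3 libraries) or none, and with DESeq2 1.42.0 (its size factors in edgeR and its own Wald test). After the data were seen, library totals in place of TMM and a fit without both libraries that stood apart were added. Gene positions and promoter windows come from RefSeq on GRCh38.p14, where the files' older synthetase symbols (AARS) have the newer form (AARS1).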

Additional observations from a re-analysis of the deposited data

Results flagged for a closer look

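Each value below is a difference between times: the log2 effect of a compound against DMSO at 4 h minus that at 2 h, from edgeR's quasi-likelihood test of the difference itself, adjusted over all 14988 tested genes. For TRAP1, 13 of the 35 genes differed, 8 higher and 5 lower, where 22.0% of all tested genes did. By library totals 5 were higher and 11 lower, where 5.36% and 18.9% of all genes were. The effect grew by 0.793 for MTHFD2, 0.561 for ATF4, 0.563 for PPP1R15A and 0.52 for CEBPB, and the differences were -0.348 for AARS, -0.328 for MARS, -0.382 for SLC7A1 and -0.221 for TARS, with a largest adjusted p of 0.017 (TARS). The TARS call was lost without the first TRAP1 library at 2 h (-0.20) or the second at 4 h (-0.17), and that of SLC7A1 without the third at 4 h (-0.28, adjusted p 0.076).

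For TRAP-1-NegP, 14 genes differed, 7 higher and 7 lower, where 23.2% of all tested genes did. By library totals 6 were higher and 9 lower, where 9.25% and 14% of all genes were. The differences were 0.787 for MTHFD2, 0.38 for SLC7A5, 0.499 for SLC7A1 and 0.281 for ATF4, and -0.555 for AARS, -0.358 for MARS, -0.519 for PHGDH and -0.297 for SLC3A2. The SLC7A1 difference from DMSO went from -0.67 to -1.05 with TRAP1 and from -0.82 to -0.32 with TRAP-1-NegP, while DMSO itself fell by 0.44.

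For JQ1, 13 genes differed, 8 higher and 5 lower, where 26.0% of all tested genes did. By library totals 7 were higher and 10 lower, where 11.2% and 15.1% of all genes were. The differences were 0.856 for MTHFD2, 0.937 for SLC38A2, 0.361 for ATF4 and 0.532 for CEBPB, and -0.717 for AARS, -0.441 for MARS, -0.6 for CARS and -0.879 for TRIB3. SLC38A2 and AARS changed side, from -0.52 to 0.42 and from 0.19 to -0.53.

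For TRAP-1-NegB, 1 gene differed, where 2.48% of all tested genes did. It was SLC7A5 with 0.265, a call lost without any 1 of the 12 libraries behind it. For MS78, 10 genes differed, 3 higher and 7 lower, where 15.2% of all tested genes did. By library totals 5 were higher and 2 lower, where 10.3% and 4.76% of all genes were. The differences were 0.794 for SLC7A11, 0.474 for MTHFD2 and 0.638 for SLC38A2, and -0.47 for SLC1A5, -0.454 for PPP1R15A, -0.312 for AARS and -0.466 for PHGDH. The first MS78 library at 2 h stood apart from the other pair, and the count was 5 without it, with PHGDH at -0.33 (adjusted p 0.10) and AARS at -0.23 (adjusted p 0.050). Over all genes the count without it was 1133 in place of 2281. The 5 sets of differences share the DMSO libraries of both times. In these, AARS, MARS, PHGDH, SLC3A2, SLC1A5, SLC7A1, SLC7A11 and MTHFD2, among others, themselves changed. The mean of MARS was 139.7 CPM at 2 h and 139 CPM at 4 h with TRAP1, and 135.2 and 168.9 CPM with DMSO.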

How the results depend on the processing

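Directions and calls were mostly kept: of the members' values and the counts, the DESeq2 size factors left 894 on the same side of the threshold and direction, with 9 calls lost and 7 gained, length-scaled counts left 887 (13 lost, 10 gained), no count filter 872 (28 and 10), the stricter filter 873 (1 and 10), the DESeq2 Wald test 840 (4 and 29) and a fit of only the groups compared 814 (35 and 52). Leaving out each library in turn left 6133 (303 lost, 74 gained), summed over all these fits. The cause of these changes was not tested, except that fits of fewer libraries have fewer residual degrees of freedom.

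In no comparison was the correlation of deviations over 0.1 for every replicate number. No pairing by number was seen, but with 3 libraries per group this cannot show that there was none. The fit with the replicate number as a block left 901 values the same, with 9 calls lost and 0 gained. It left 0 genes of the 35 in the TRAP-1-NegB time contrast, as did length-scaled counts (0) and library totals (0), while the DESeq2 Wald test called 2.

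Scaling by library totals left 763 values on the same side, with 68 lost, 56 gained and 23 reversed. Reversed here means a change of sign, and the value by library totals was not always called by edgeR. At 4 h TRAP1 against DMSO reversed to -0.0956 for SHMT2, -0.133 for SLC3A2, -0.121 for IARS, -0.171 for SARS, -0.210 for TARS and -0.0709 for YARS, and TRAP-1-NegP to -0.172 for TARS and -0.00654 for YARS. SHMT2 and YARS with TRAP1 (adjusted p 0.19 and 0.32) and YARS with TRAP-1-NegP (adjusted p 0.95) were then not called. TRAP1 against JQ1 reversed to -0.141 for SLC1A5. TRAP1 against TRAP-1-NegB at 4 h reversed to -0.0323 for SHMT2, -0.0125 for EPRS, -0.0254 for GARS, -0.0704 for IARS, -0.0592 for NARS, -0.156 for SARS and -0.189 for YARS. Of these, SHMT2, EPRS, GARS, IARS and NARS were then not called (adjusted p 0.33 to 0.9). TRAP1 against MS78 at 4 h reversed to -0.0812 for SHMT2, -0.319 for EPRS, -0.227 for GARS, -0.307 for IARS, -0.330 for NARS, -0.127 for SARS and -0.125 for YARS. Of these, SHMT2, SARS and YARS were then not called (adjusted p 0.26, 0.056 and 0.062).

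With only the groups compared, the calls were 14 of the 35 and 2695 of all genes for TRAP-1-NegB at 2 h, 5 and 319 for MS78 at 2 h, 5 and 1112 for TRAP1 against TRAP-1-NegP at 2 h, 2 and 1036 against JQ1 at 2 h, 7 and 1602 against MS78 at 2 h, 11 and 3318 for JQ1 against TRAP-1-NegP at 2 h, and 3 and 646 for the TRAP-1-NegB and 3 and 833 for the MS78 time contrast. Over all genes, no count filter gave 248 for TRAP-1-NegB at 4 h and 243 for TRAP1 against TRAP-1-NegP at 2 h, and the DESeq2 Wald test 234 and 250, with 553 for TRAP1 against JQ1 at 2 h. Without both libraries that stood apart the MS78 time contrast had 6 of the 35 and 1299 genes.

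Leaving out 1 library gave 92 to 158 genes for TRAP-1-NegB at 4 h, 6 to 12 of the 35 and 1352 to 2551 genes for MS78 at 4 h, 54 to 79 genes for TRAP1 against TRAP-1-NegP at 2 h and 6 to 8 of the 35 at 4 h. It gave 0 to 1 of the 35 and 124 to 282 genes for TRAP1 against JQ1 at 2 h, 3 to 6 and 1131 to 1723 for JQ1 against TRAP-1-NegP at 2 h, 0 to 0 and 246 to 331 for the TRAP-1-NegB time contrast, and 5 to 13 and 1133 to 3400 for that of MS78. Depth limits NUPR1, VLDLR, SLC1A4 and CHAC1, whose counts were lowest, and STC2, which was not tested.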
